A study of Homo sapiens with 6 samples.

Results

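The genes described here encode the contractile apparatus of smooth muscle and myofibroblasts and the focal adhesions that anchor it. A list of 35 genes was fixed by name, and a gene was measured where a probe set of the array carried its symbol and no other. That held for 34 of the 35 among 18417 genes tested, and FLNA was not analysed here. Only PXN had a choice of probe sets, and the brighter one, by its mean across all 6 arrays, was used. The cells were IMR90, a primary line of human lung fibroblasts, and the labels name no genetic change. The control group was 3 untreated samples, and the treated group was 3 samples stimulated with recombinant human oncostatin M at 10 ng/mL, an interleukin-6 family cytokine. Total RNA of each sample was hybridised to 1 Affymetrix array, and the labels give no duration of treatment. Nothing in them says that replicates came from separate cultures. The p-values therefore reflect the spread among these 6 samples, and part of that spread may be technical.

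In a contractile fibroblast, actin filaments slide along bundles of non-muscle or smooth muscle myosin, whose light chains are phosphorylated by myosin light chain kinase. The filaments are crosslinked by alpha-actinin and end at focal adhesions, where talin, vinculin, paxillin and zyxin join them to integrins. Serum response factor (SRF) binds CArG boxes in many of these genes, and its co-activator myocardin switches on the smooth muscle programme. Fibroblasts that build up smooth muscle actin are called myofibroblasts and drive the contraction of wounds and of fibrotic lung.

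Oncostatin M was followed by opposite movements within this group. Myocardin (MYOCD) rose 2.24-fold, while 4 structural genes fell by between 1.25-fold and 1.42-fold: PDLIM5, CNN1, SMTN and ZYX. The other 29 measured genes did not pass an adjusted p of 0.05 (limma, Benjamini-Hochberg over all genes tested). Thus 14.7% of the measured genes were called, against 3.42% of all genes. By direction, 11.8% were lower, against 1.7% of all genes, and 1 of 34 was higher, against 1.72% of all genes. The median change was -0.14 on the log2 scale against 0.000574 for all genes, and 28 of 34 genes lay below 0 against 49.8% of all genes. Without 1 array the count of lower genes was 0 (without control 1), 1 (without control 2 or without oncostatin M 2), 2 (without control 3 or without oncostatin M 3) or 3 (without oncostatin M 1). Without control 1 the count of lower genes over all genes tested fell too. Where limma gave 0 without control 1, 9 genes of the list were lower at an unadjusted p under 0.05. With all arrays 15 were lower and 2 higher at that level, against 6.66% and 4.98% of all genes.

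Most of these genes are strongly expressed, and strongly expressed genes leaned downwards as a whole. Among 4290 genes with a mean level above 9, a limit chosen after seeing the data, the median change was -0.033, 62.7% lay below 0, 3.1% were called lower and 3.08% higher. Of the 29 contractile and adhesion genes above that limit, 89.7% lay below 0, the median was -0.15 and 13.8% were called lower. The part of level in these shifts was not tested. Levels are log2 values, given below for arrays 1, 2 and 3 of a group in turn, and a change is the treated mean minus the control mean in log2 units, with its standard error (SE).

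**Figure D1:**
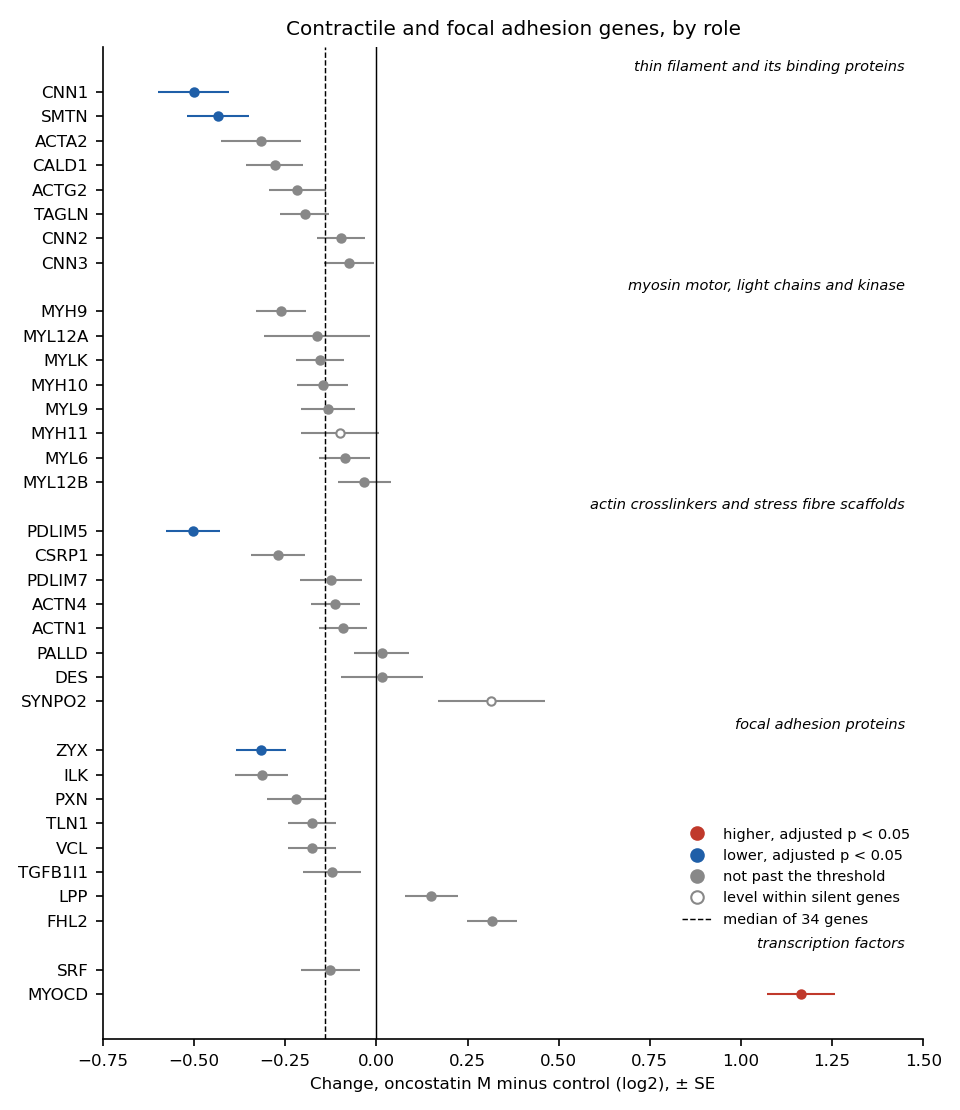
Change in level (log2, oncostatin M minus control) of the 34 measured genes with bars of 1 SE, grouped by role. MYOCD stands at 1.16, the 4 genes called lower between -0.32 and -0.50, and the dashed line marks the median of -0.14.

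Oncostatin M 1 was the array that stood apart most. Its correlation with the other arrays was between 0.9893 and 0.9928, and limma's array weight for it was 0.226, against 0.723 to 3.22 for the others. Array medians over all probe sets lay between 6.54 and 6.66. All 8 fibroblast markers lay above the level that 95% of 409 olfactory receptor and keratin-associated protein genes stayed below (6.74 in control, 6.77 after oncostatin M). None of the 6 epithelial markers did, while 1 of 6 endothelial, 1 of 5 immune and 2 of 6 striated muscle markers did. No marker of these 4 cell types was called in either direction. Among the fibroblast markers, PDGFRA rose by 0.39 (SE 0.08, limma adjusted p = 0.0337), THY1, DCN and FAP were higher on every treated array without passing, and VIM was lower on every treated array without passing. The mean level of the 8 fibroblast markers was between 11.87 and 11.98 in controls and between 11.99 and 12.14 after oncostatin M, with a median change of 0.23. Of 7 smooth muscle and pericyte markers outside the list, 5 lay above the level in control and 4 after oncostatin M, and RGS5 and CSPG4 were lower. The mean level of those 7 was between 7.58 and 7.65 in controls and between 7.27 and 7.41 after oncostatin M, with a median change of -0.11. RGS5 and CSPG4 had the largest changes, -0.70 and -0.67. The treated mean of RGS5, 6.69, lay below the level of 6.77, so the size of its fall is uncertain. The part of these marker levels in the changes below was not tested, and in RNA of a whole culture fewer contractile cells and less RNA per cell cannot be told apart.

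The transcription factors of the programme were measured by MYOCD and SRF. MYOCD, the co-activator that binds SRF, read 8.08, 8.22 and 8.24 in controls and 9.38, 9.47 and 9.18 after oncostatin M (probe set 8005048). Every treated array stood above every control array, by far more than either group's spread. The mean went from 8.18 ± 0.085 to 9.34 ± 0.15 (SD, n = 3), a rise of 1.16 (SE 0.09, limma adjusted p = 0.000561). It ranked 48 by size among the 316 genes called higher, and its call held when any 1 array was left out, with adjusted p up to 0.0105. Its control level was above that of 98.5% of the 409 genes used as a silent reference.

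SRF itself read 9.99, 10.06 and 9.87 in controls and 9.93, 9.83 and 9.78 after oncostatin M. The groups overlapped, and the change of -0.13 had a confidence interval (95%) from -0.31 to 0.06 (adjusted p = 0.708). Whether the changes of MYOCD and SRF differ was not tested.

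**Figure D2:**
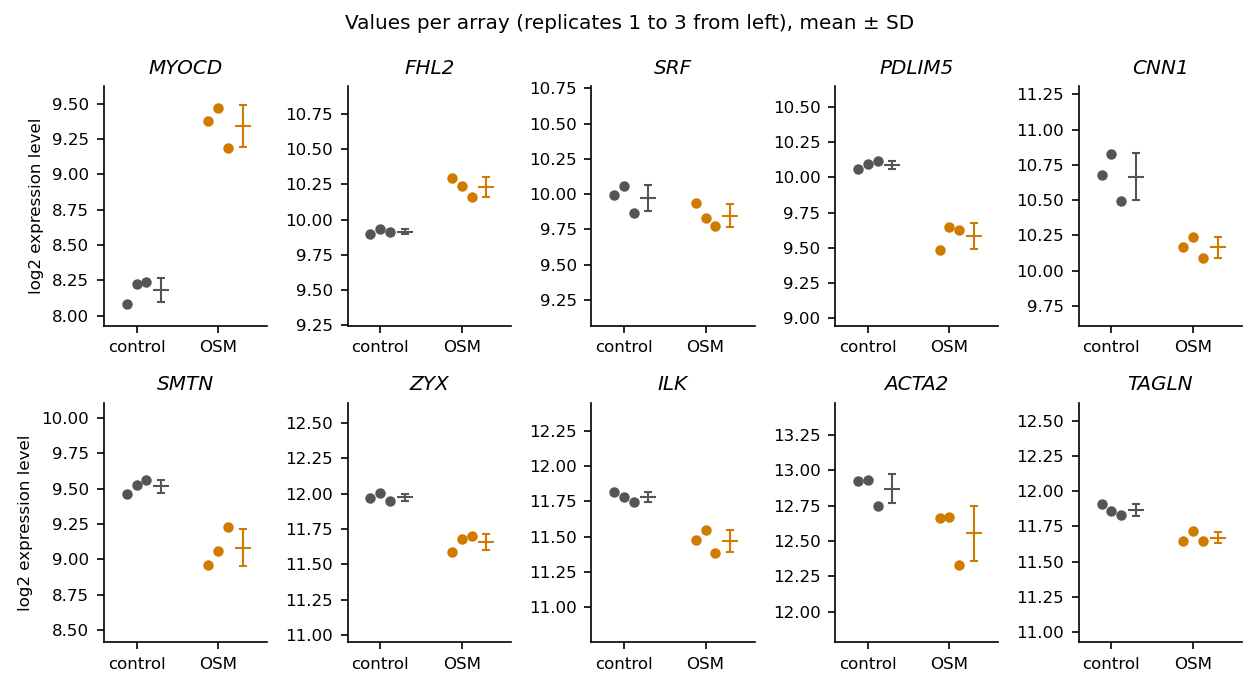
Log2 expression level on each of the 6 arrays for 10 genes, with points for replicates 1 to 3 from left to right and a bar for mean ± SD of each group; the axes share a span but not an origin. MYOCD and FHL2 are higher on every array after oncostatin M (OSM), SRF overlaps, and the other 7 are lower on every array.

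The actins of the thin filament and the proteins that bind it all lay below 0. These 8 genes spanned -0.50 to -0.07, with a median of -0.25. Of the 8, limma called 2 lower and none higher, against 1.7% and 1.72% of all genes. At an unadjusted limma p under 0.05, 6 were lower and 0 higher, against 6.66% and 4.98% of all genes. Calponin (CNN1), an actin-binding inhibitor of myosin ATPase, read 10.68, 10.83 and 10.49 in controls and 10.17, 10.24 and 10.09 after oncostatin M. The groups did not overlap, and control 2 was the highest of the 6. CNN1 fell by 0.50 (SE 0.10, adjusted p = 0.0315). Smoothelin (SMTN), a marker of contractile smooth muscle, read 9.46, 9.53 and 9.56 in controls and 8.96, 9.06 and 9.23 after oncostatin M. Its treated arrays were all lower and more spread than the controls, and SMTN fell by 0.43 (SE 0.09, adjusted p = 0.033). Both calls were lost in 4 of 6 fits with an array left out, with adjusted p up to 0.159 for CNN1 (without control 1) and 0.14 for SMTN (without control 3).

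Smooth muscle alpha-actin (ACTA2), the defining myofibroblast marker, read 12.92, 12.94 and 12.75 in controls and 12.66, 12.67 and 12.33 after oncostatin M. The groups did not overlap, but oncostatin M 3 was well below the other treated arrays, and the change of -0.32 (SE 0.11) did not pass (adjusted p = 0.257). Without oncostatin M 3 the ACTA2 change was -0.20, no fit with an array left out called it (adjusted p from 0.142 to 0.608), and with array weights it was -0.45 and called lower (adjusted p = 0.0259). Transgelin (TAGLN), an actin-bundling protein, read 11.91, 11.86 and 11.83 against 11.65, 11.72 and 11.65. Its change was -0.20 (SE 0.07, adjusted p = 0.249), with no overlap between groups. Caldesmon (CALD1), which holds myosin off actin, differed by -0.28 (SE 0.08, adjusted p = 0.133), again without overlap. Smooth muscle gamma-actin (ACTG2) differed by -0.22 (SE 0.08). Actin genes are very alike in sequence, so probes for ACTA2 and ACTG2 may read each other's transcripts and their values are uncertain. The calponins expressed outside muscle differed less, with -0.10 for CNN2 (confidence interval -0.25 to 0.06) and -0.07 for CNN3 (-0.23 to 0.08). Whether CNN1 changed more than these was not tested.

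Myosin and its regulators all lay below 0, but none passed the threshold (limma, 8 measured, median -0.14, 2 lower and 0 higher at an unadjusted p under 0.05). The heavy chain of non-muscle myosin IIA (MYH9) read 12.02, 11.93 and 11.89 in controls and 11.71, 11.69 and 11.66 after oncostatin M. Controls and treated arrays were clearly separated, with a change of -0.26 (SE 0.07, adjusted p = 0.108). Myosin light chain kinase (MYLK), which turns on contraction, differed by -0.15 (SE 0.07, adjusted p = 0.418) and the IIB heavy chain MYH10 by -0.15 (SE 0.07, adjusted p = 0.486). The regulatory light chain MYL9 differed by -0.13 and the essential light chain MYL6 by -0.09. The regulatory light chains MYL12A and MYL12B differed by -0.16 and -0.03. These 2 are near-identical copies, and the array also has a probe set that carries both symbols, so their separate values are uncertain. Smooth muscle myosin heavy chain (MYH11), the strictest smooth muscle marker of the list, was at 6.10 ± 0.14 in controls and 5.998 ± 0.16 after oncostatin M. That is within the range of silent genes in both groups, and no size is read from it, although MYH11 is counted among the 8.

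Crosslinkers and scaffolds of stress fibres were mixed. Of 8 measured genes 5 lay below 0, 1 fell and none rose (limma; 2 lower and 0 higher at an unadjusted p under 0.05). PDLIM5, which tethers protein kinases to alpha-actinin at the Z-disc, read 10.06, 10.10 and 10.11 in controls and 9.48, 9.65 and 9.63 after oncostatin M. Its controls were nearly equal and its treated arrays were all lower. PDLIM5 fell by 0.50 (SE 0.07, adjusted p = 0.0087), and its call was lost without control 1 (adjusted p = 0.0534) and held in the other 5 fits with an array left out. Its relative PDLIM7 differed by -0.13 (SE 0.09) with overlapping groups. CSRP1, a LIM protein bound to alpha-actinin and zyxin, read 12.41, 12.39 and 12.41 against 12.03, 12.16 and 12.21, a change of -0.27 (SE 0.07, adjusted p = 0.12). The alpha-actinins ACTN1 and ACTN4 differed by -0.09 (confidence interval -0.24 to 0.06) and -0.11 (-0.27 to 0.04). Palladin (PALLD), an actin-organising scaffold, differed by 0.01 (SE 0.07). Desmin (DES), the muscle intermediate filament, differed by 0.02 (SE 0.11), with oncostatin M 1 its highest array. SYNPO2, an actin-bundling partner of alpha-actinin, lay within the range of silent genes in both groups. Without SYNPO2 and MYH11, 27 of 32 measured genes of the list lay below 0 (84.4%), with a median of -0.15. Among all genes above that range in at least 1 group, 56% lay below 0.

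Focal adhesion proteins lay on both sides of 0. Of 8 measured genes 6 lay below 0, 1 fell and none rose (limma; 5 lower and 1 higher at an unadjusted p under 0.05). Zyxin (ZYX), which moves to strained stress fibres and helps repair them, read 11.97, 12.003 and 11.95 in controls and 11.59, 11.68 and 11.70 after oncostatin M. The 2 groups were far apart against their spread, and ZYX fell by 0.32 (SE 0.07, adjusted p = 0.0486). This was the smallest fall among the 314 genes called lower, and the call was lost whenever any 1 array was left out (adjusted p up to 0.19 without control 1). Integrin-linked kinase (ILK), the scaffold that couples integrins to parvin, read 11.82, 11.78 and 11.75 against 11.47, 11.54 and 11.39. The difference of -0.31 (SE 0.07) narrowly missed the threshold (adjusted p = 0.0632).

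The LIM protein FHL2, which binds integrins and can enter the nucleus and bind SRF, lay on the other side of 0. It read 9.90, 9.93 and 9.91 in controls and 10.30, 10.24 and 10.16 after oncostatin M. Every treated array was higher than every control, and the change was 0.32 (SE 0.07, adjusted p = 0.0522). LPP, a close relative of zyxin, read 11.7263, 11.60 and 11.61 in controls and 11.84, 11.82 and 11.7273 after oncostatin M. Its treated arrays were higher too, but the lowest was only just above the highest control. The LPP change was 0.15 (SE 0.07, limma adjusted p = 0.525), while ZYX fell. Whether LPP and ZYX responded differently was not tested. Talin (TLN1) and vinculin (VCL), the mechanical link from integrin to actin, each differed by -0.18 (SE 0.07) without overlap, with adjusted p of 0.297 and 0.299. Paxillin (PXN) differed by -0.22 (SE 0.08, adjusted p = 0.283) and its relative TGFB1I1, also called Hic-5, by -0.12 (SE 0.08). The other probe set of PXN gave -0.07 (SE 0.11).

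Small shifts were shared by many of the genes that did not pass. The groups did not overlap for 23 of the 34 genes, 20 of them lower and 3 higher (MYOCD, FHL2 and, by a very narrow margin, LPP). Thus 58.8% were lower on every treated array, against 10.6% of all genes and 20.4% of genes with a mean above 9. For higher genes the share among all genes was 7.43%. Taken by array, the median deviation of the 34 genes from their own means was 0.0768, 0.111 and 0.0396 in controls and -0.0825, -0.0618 and -0.0815 after oncostatin M. These medians were thus alike among the treated arrays and each lay below all controls, while the same median over all genes stayed between -0.0146 and 0.0236. By other measures the treated arrays were less alike. Oncostatin M 3 held the lowest value for 16 genes, oncostatin M 1 for 12 and oncostatin M 2 for 2.

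**Figure D3:**
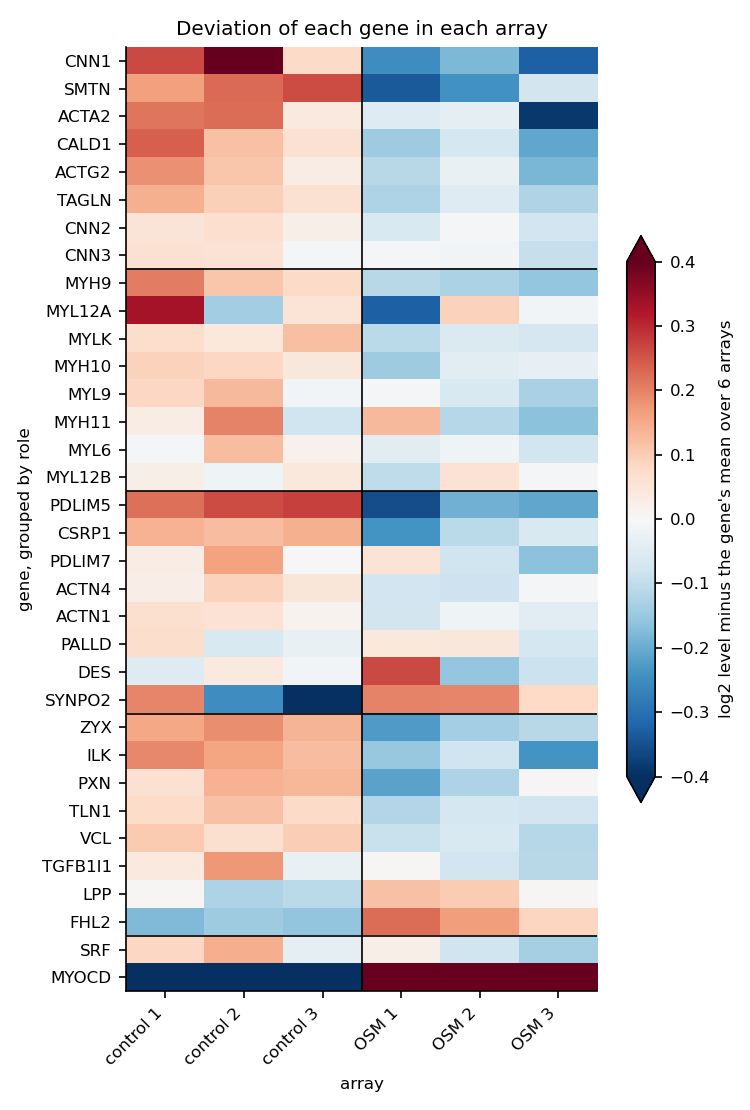
Deviation of each gene's log2 level from its own mean over the 6 arrays, with genes grouped by role (lines) and arrays by group; the colour scale ends at ±0.4 and arrow ends mark values beyond it. Controls are mostly above the mean and treated arrays below it, with MYOCD and FHL2 reversed. LPP is reversed too, except that control 1 lies about at its mean.

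Promoters were searched for CArG boxes, the sites that SRF binds. The part of these boxes in the changes was not tested. Promoter windows from RefSeq (GRCh38.p14, 250 bases before to 50 after an annotated start) were matched for 29 of the 34 genes, and not for TAGLN, MYH11, MYL9, DES and MYOCD. A full CArG box stood in at least 1 window of 9 of the 29 (31%), against 1.7% of the genes tested that have a window. By window the shares were 11 of 64 (17.2%) and 1.25% of the windows of genes tested, and some windows of a gene overlap. The box reads the same on both strands, so each was counted once. Many list members are textbook SRF targets, so the share describes how such a list is made up. Stretches are shown for SMTN, which fell, for ACTG2 and SRF, which hold 2 boxes, and for FHL2 and LPP, whose changes lay above 0. Each runs 5′ to 3′ on the gene's strand with CArG boxes in capitals.
SMTN, chr22:31084932-31084981, plus strand: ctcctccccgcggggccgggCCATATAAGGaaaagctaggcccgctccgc
ACTG2, chr2:73892878-73892964, plus strand: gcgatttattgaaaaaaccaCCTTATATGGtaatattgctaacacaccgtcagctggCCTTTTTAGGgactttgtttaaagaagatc
SRF, chr6:43171219-43171268, plus strand: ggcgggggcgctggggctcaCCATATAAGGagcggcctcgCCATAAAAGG
FHL2, first start, chr2:105438585-105438634, minus strand: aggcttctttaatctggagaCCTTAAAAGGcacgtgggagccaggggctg
FHL2, second start, chr2:105399081-105399130, minus strand: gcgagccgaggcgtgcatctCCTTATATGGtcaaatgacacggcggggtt
LPP, chr3:188212509-188212558, plus strand: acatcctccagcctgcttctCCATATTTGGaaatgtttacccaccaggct

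The changes of genes with and without a box are given side by side, with no test. The 9 with a box (CNN2, ACTG2, SMTN, TGFB1I1, ACTN1, MYLK, LPP, SRF and FHL2) had a median of -0.12, and 7 lay below 0. The 20 with a window but no box had a median of -0.18, and 18 lay below 0. Only exact matches to the full box were counted, so SRF sites that differ from it by a letter may stand in the windows of these 20. The split is thus not one of SRF targets against other genes. Of the 4 genes called lower, SMTN holds a box, while the windows of CNN1, PDLIM5 and ZYX hold none, which says only that the letters are not in these windows. TTCNNNGAA, the core letters of STAT sites, stood in 6 of 29 genes (20.7%, against 9.2% of genes tested). GGAATG, the core of TEAD sites, stood in 16 of 29 (55.2%, against 15.5%). Both were searched on both strands, and genes of the list had more windows each (64 for 29 genes) than the genes tested (20109 for 14239). Counted by window, TTCNNNGAA stood in 10.9% of the list's windows, against 6.92% of those of genes tested. For GGAATG these shares were 28.1% and 12.1%. Matches are letters, not measured binding.

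**Figure D4:**
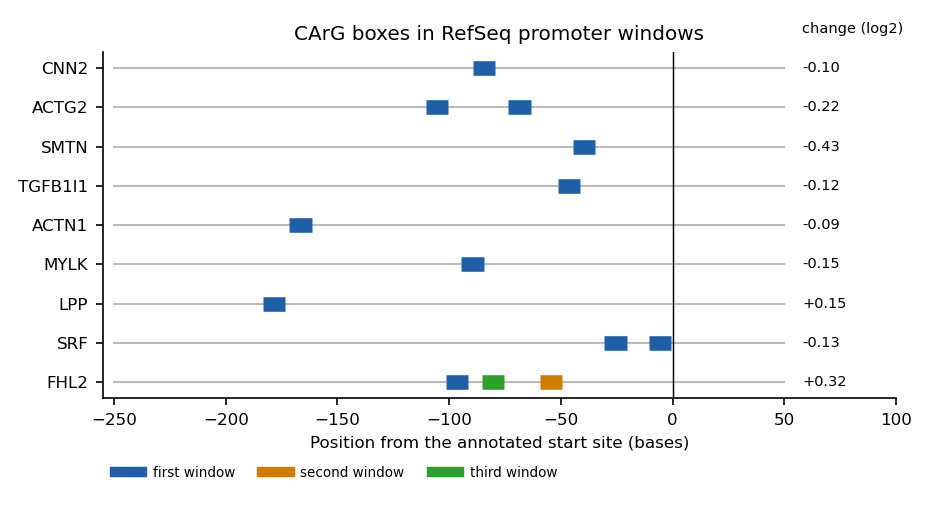
Position of CArG boxes (blocks) in RefSeq windows from 250 bases before to 50 after the annotated start (line at 0), for the 9 genes that hold one, with each gene's change (log2) at the right. Boxes lie before the start in every case; the windows of FHL2 in blue and green overlap and share a box.

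Beyond the list, 3 sets of genes from the same pathways were read in the same fit, where 1.7% of all genes were called lower, 1.72% were called higher and 49.8% lay below 0. Among genes with a mean level above 9 the share below 0 was 62.7%. Of 22 measured genes of actin isoforms and polymerisation, 2 were lower, none higher and 20 lay below 0 (median -0.10; 8 lower and 0 higher at an unadjusted p under 0.05). That is 9.09% called lower and 90.9% below 0. The formin DIAPH2, which elongates actin filaments, read 8.94, 8.74 and 9.09 against 7.81, 8.25 and 8.35. DIAPH2 was lowest on oncostatin M 1 and fell by 0.79 (SE 0.15, adjusted p = 0.0293). Gelsolin (GSN), which severs filaments, fell by 0.34 (SE 0.07, adjusted p = 0.0377).

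Of 30 adhesion adaptors, 3 fell (10%), none rose and 66.7% lay below 0 (median -0.08; 7 lower and 2 higher at an unadjusted p under 0.05). Tensin 1 (TNS1), which links integrin tails to actin, read 9.85, 9.88 and 9.86 in controls and 9.32, 9.37 and 9.49 after oncostatin M. Its controls were nearly equal, and TNS1 fell by 0.47 (SE 0.07, adjusted p = 0.0107). The adaptor NEDD9 fell by 0.46 (SE 0.09, adjusted p = 0.0278). PDLIM3, an alpha-actinin binding relative of PDLIM5, fell by 0.39 (SE 0.08, adjusted p = 0.0422), to a level within the range of silent genes, so its size is uncertain.

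Of the 19 measured SRF cofactors and SRF or YAP targets, 4 were lower and 1 was higher (median -0.10; 8 lower and 1 higher at an unadjusted p under 0.05). The 4 lower genes were 21.1% of the set, and 73.7% of it lay below 0. ANKRD1, a mechanically induced YAP target, read 7.58, 7.79 and 7.77 in controls and 6.69, 6.79 and 6.98 after oncostatin M. All treated arrays were lower, and ANKRD1 fell by 0.89 (SE 0.10, adjusted p = 0.00233). Its treated mean of 6.82 lay just above the silent-gene level of 6.77, so the size of its fall is uncertain. MICAL2, a monooxygenase that acts on actin and raises SRF activity, read 11.14, 11.10 and 11.05 against 10.55, 10.49 and 10.52. MICAL2 fell by 0.58 (SE 0.07, adjusted p = 0.00282). ELK3, an ETS partner of SRF, fell by 0.60 (SE 0.10, adjusted p = 0.013). NUAK1, a kinase that acts on the myosin phosphatase subunit, fell by 0.53 (SE 0.08, adjusted p = 0.00959). FILIP1L, chosen for mention after its value was seen, rose by 0.47 (SE 0.10, adjusted p = 0.0422).

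With an array left out, ANKRD1 and MICAL2 kept their calls in all 6 fits. Calls were lost in 2 fits for NUAK1, in 3 for TNS1 and ELK3, in 4 for DIAPH2 and in 5 for GSN, NEDD9, PDLIM3 and FILIP1L. Each was lost without control 1 and without control 2, with adjusted p up to 0.197 (PDLIM3, without control 1).

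**Figure D5:**
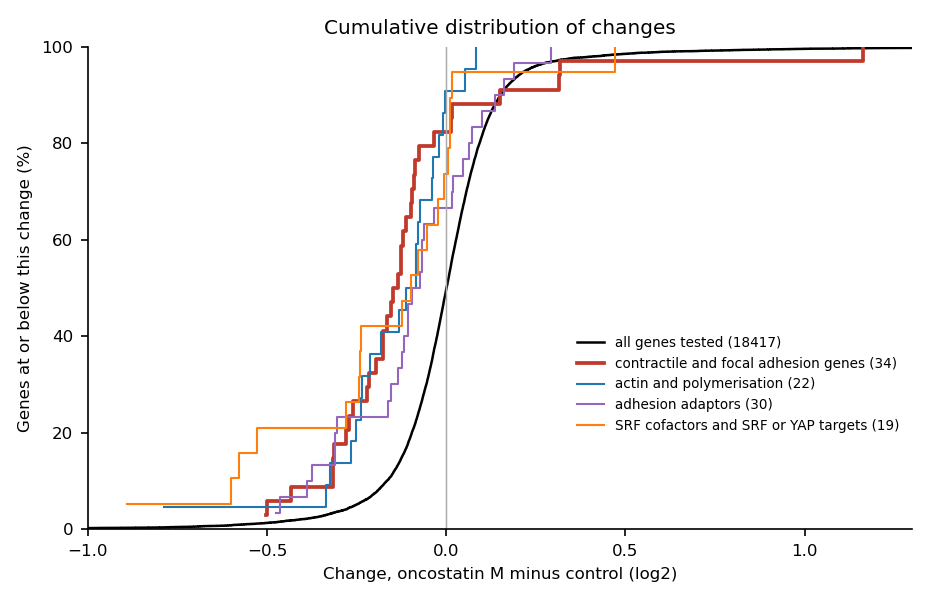
Cumulative share of genes (percent) at or below each change (log2, oncostatin M minus control) for all 18417 genes tested, the 34 contractile and focal adhesion genes and 3 pathway sets; numbers in the key are genes measured. The curve of the 34 genes crosses 50% at -0.14 and that of all genes near 0.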

How the data were processed

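The authors' deposited table holds log2 values, with 1 value for each probe set on each array. Per the submitters' processing notes, RMA and Affymetrix Expression Console 1.1 were used. RMA corrects background, aligns the arrays' distributions and summarises probes, so changes are relative to other genes and are shrunk at low intensity. RNA was prepared on RNeasy columns and labelled with an Ambion kit, per the labels' protocols. The genome build is not given in the sources used; printed coordinates are those of RefSeq's promoter table. The platform's gene table gave 1 symbol for 19460 of 33297 probe sets, several for 1754 and none for 12083.

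Groups came from the labels. For 18417 genes the difference between groups was tested with limma 3.58.1 under R 4.3.3 by moderated two-sided tests, with no covariate, Benjamini-Hochberg adjustment over all genes and a threshold of 0.05. Precision is limited by having 3 arrays a group. The model and the motif search were tested on simulated data. Figures used matplotlib 3.10.9.

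The genes and lists were chosen with earlier results of these data known. Text names all 34 measured genes, and up to 4 genes per pathway set with the largest change among those past the threshold. Pathway genes without a probe set of their own were not analysed here, and 1 set is not reported here. Samples were not paired by replicate number in the main fit. Deviations from the group means correlated by 0.0635, -0.456 and 0.511 for same-numbered arrays. With 3 arrays a group, these values cannot decide whether same-numbered arrays were paired. Alternatives covered normalization, probe set choice, a filter on dim genes, array weights, the variance prior, a replicate block, a threshold of 0.01 and each array left out.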

Additional observations from a re-analysis of the deposited data

How the results depend on the processing

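The median change of the 34 genes was below 0 under every alternative run, and with 1 array left out it ranged from -0.169 to -0.123. The count of lower genes, 4 with all arrays, ranged from 0 to 3 with 1 array left out (limma, 9 to 14 lower at an unadjusted p under 0.05). It was 9 with a trend in the variance prior and 9 with array weights, with 2 genes higher in each, and 1 at a threshold of 0.01. The genes that array weights added were ACTA2, ACTG2, CALD1, MYH9 and ILK. With the replicate block it was 2 (CNN1 and PDLIM5). That block rests on the replicate number alone, and whether same-numbered arrays were paired could not be decided. Without dim genes 2 genes were higher, and FHL2 was the gene added. ILK was lower after a second quantile normalization, without dim genes, with the trend and with array weights, and CNN1 was not called after the second quantile normalization. MYOCD and, apart from the fit without control 1, PDLIM5 were called in every fit. Of 576 refits of single genes of the list, 24 lost and 15 gained a call and none reversed a called direction. Of 170 refits of the 10 pathway genes called, 43 lost a call. Genes within or close to the range of silent genes, such as MYH11, SYNPO2, PDLIM3 and ANKRD1, limit what can be read of size.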

Other observations

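Several pathway genes outside the naming rule, chosen after their values were seen, lay close to the threshold. The adhesion adaptors BCAR1, TES and PDLIM4 each differed by -0.31 (SE 0.07), with limma adjusted p of 0.0723, 0.0721 and 0.0731. Tensin 2 (TNS2) differed by 0.29 (SE 0.07, adjusted p = 0.068), with every treated array above every control, while its relative TNS1 fell. The non-muscle actins ACTB and ACTG1, which form most of the filaments of a fibroblast, differed by -0.0022 (confidence interval -0.16 to 0.15) and -0.04 (-0.19 to 0.11). The SRF cofactor MRTFB differed by 0.02 (SE 0.07), and the YAP target CCN2 by 0.0096 (SE 0.07), whereas ANKRD1, also a YAP target, fell. Whether these relatives responded differently was not tested.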
